A study of Mus musculus with 12 samples.

Results

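MYC is a transcription factor that binds DNA as a pair with MAX, most readily at the sequence CACGTG (the E-box), and it is known for driving the genes with which a growing cell makes ribosomes. Ribosomes are assembled in the nucleolus: RNA polymerase I transcribes the ribosomal RNA precursor, small nucleolar ribonucleoproteins (snoRNPs) guide its chemical modification, the small-subunit processome and a series of 60S assembly factors fold and cut it, and the finished subunits are exported. In endothelial cells MYC is known as part of the growth programme of sprouting vessels. The genes described here are Myc and genes that were chosen by name as nucleolar assembly factors, together 36 of the 24421 genes listed in each deposited table. All 36 were listed for each of the 12 libraries, 12 of them at a value of 0 in 1 or more libraries. All 36 passed the filter on low values that left 11634 genes for testing. 3 of them are not assembly factors by their known role: Odc1, Cad and Srm encode enzymes of polyamine and pyrimidine synthesis and are known MYC targets.

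The libraries were made from total RNA of endothelial cells that had been FACS-sorted from lung, from C57BL/6J animals of postnatal day 5, using a kit that reads near the 3′ end of transcripts. There were 4 wild-type libraries (WT), 4 that carried VE-cadherin-CreERT2 with the alleles Lats1f/f and Lats2 f/f (here L12-ECKO) and 4 with these and with Yapf/f and TAZf/f (here L12YT-ECKO). LATS1 and LATS2 are the Hippo pathway kinases that hold back the coactivators YAP and TAZ, so the design asks what loss of the kinases does in endothelium and what remains of it without YAP and TAZ. The Cre in both knockout groups is an inducible one under the endothelial VE-cadherin promoter. The labels do not say when it was induced, whether the WT mice carried it or received the inducer, or whether each library is a different animal. The p-values therefore measure only how these libraries vary.

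The deposited values are log2 values that had been brought to nearly the same distribution in every library, so sequencing depth is unknown. Between 9850 (L12-ECKO replicate 3) and 13078 (L12-ECKO replicate 4) genes were above 0 per library. The lowest value above 0 differed as well: it was 3.01 to 3.16 in the WT libraries, 4.98 in L12-ECKO replicate 3 and 0.067 to 2.77 in the others, so a gene listed at 0 is one below a limit that is not the same in each library. The tables of 5 libraries, namely replicates 2 to 4 of L12-ECKO along with replicates 3 and 4 of L12YT-ECKO, hold 32 consecutive rows that are shifted by 1 row, so these 5 were handled apart from the other 7. All WT libraries are among the 7. The labels name no batch, and whether the 5 libraries were prepared apart from the 7 is not known. Below, the word batch means only this split by displaced rows. None of the 36 genes lies in the block. Wwtr1, which encodes TAZ, lay at 8.16 to 9.37 in L12YT-ECKO against 10.1 to 12.01 in the other 2 groups, and Yap1 at 6.69 to 8.204 against 9.35 to 10.4. Lats1 was 5.32 to 7.45 in WT, 0 to 7.40 in L12-ECKO and 0 to 7.90 in L12YT-ECKO. Lats2 was 8.42 to 9.34 in WT, 9.71 to 10.3 in L12-ECKO, where it lay higher, and 8.63 to 9.57 in L12YT-ECKO. Lats1 and Lats2 do not check the labels, since where the 3′ reads lie relative to the deleted exons is not known here. For Yap1 and Wwtr1 it is not known either. The 10 endothelial markers (Pecam1, Cdh5, Kdr and others) were above 0 in every library, with a mean of 13.1 to 13.6. The mean of 5 immune markers was 11.3 in L12-ECKO replicate 1 and 1.12 to 6.61 elsewhere, and the mean of 8 liver markers was 4.21 to 6.67 in the 5 libraries with displaced rows and 1.03 to 3.50 in the other 7. In RNA from many cells at once, fewer cells of a type and less RNA per cell cannot be told apart.

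6 of the 29 genes that could be searched carry the E-box near their start. Those stretches are shown because CACGTG is the sequence by which MYC and MAX are known to recognise a target. RefSeq promoter windows (GRCm38.p6, the mm10 build) run from 250 bases before to 50 bases after the start and were found for 29 of the genes; Myc, Npm1, Fbl, Bop1, Rrs1, Rrp12 and Srm were not in the table. CACGTG, which reads the same on both strands, stood in the windows of 6 of the 29 genes (20.7%) and of 2187 of all 27025 genes in the table (8.09%). Each stretch is written 5′ to 3′ on the strand of the gene with the E-box in capitals.
Wdr43, chr17:71616220-71616249, plus strand, 17 bases after the start: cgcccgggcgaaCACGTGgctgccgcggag
Pes1, chr11:3963965-3963994, plus strand, 2 bases after the start: ccctaggcagggCACGTGcgggaggaagta
Mybbp1a, chr11:72441355-72441376, plus strand, 40 bases after the start: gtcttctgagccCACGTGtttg
Imp4, chr1:34439696-34439725, plus strand, 121 bases before the start: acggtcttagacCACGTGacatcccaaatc
Utp20, chr10:88826765-88826789, minus strand, 37 bases after the start: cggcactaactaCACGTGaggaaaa
Nop2, chr6:125131811-125131840, plus strand, 60 bases before the start: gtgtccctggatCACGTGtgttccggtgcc
The 6 genes belong to the small-subunit processome (Wdr43, Imp4, Utp20) and to 60S assembly (Pes1, Mybbp1a, Nop2), and their values are given with those groups below. A match of letters does not show that MYC was bound there, and bases outside the windows were not searched for an E-box.

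None of the 36 genes passed the test in any of the 3 comparisons (limma, Benjamini-Hochberg adjusted p under 0.05 over 11634 genes). Few genes of any kind did: 56 (0.481%) in L12-ECKO versus WT, 1 (0.0086%) in L12YT-ECKO versus WT and 8 (0.0688%) in L12YT-ECKO versus L12-ECKO. At an unadjusted p under 0.05 there were 5 members in L12-ECKO versus WT (Myc, Nolc1, Odc1 and Rrs1 higher and Wdr43 lower), against 12.2% of all tested genes. There were 2 in L12YT-ECKO versus WT (Myc and Nolc1, both higher), against 6.24% of all. Myc is in both counts although it entered the test only through the knockout libraries, so its place there is no support for a difference from WT. Apart from Myc, Nolc1 was the only member in the count of L12YT-ECKO versus WT. There were 2 in L12YT-ECKO versus L12-ECKO (Ncl and Odc1, both lower), against 6.08% of all. Without overlap between the libraries of 2 groups, no member lay lower in L12-ECKO than in WT (3.36% of tested genes did) or lower in L12YT-ECKO than in WT (2.17% did).

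Members lay on both sides of 0 in each comparison. In L12-ECKO versus WT 21 members lay higher and 15 lower, with a median difference of 0.039 (log2), while 49.0% of all tested genes lay higher with a median of -0.022. In L12YT-ECKO versus WT 18 lay higher and 18 lower, with a median of 0.081 beside 0.080 over all tested genes. Myc, which entered the test only through the knockout libraries, is among the higher members in both comparisons with WT. In L12YT-ECKO versus L12-ECKO 17 lay higher and 19 lower, with a median of -0.040 beside 0.090. With the displaced-row batch as a covariate the first split became 15 higher and 21 lower, with a median of -0.23 beside -0.040 over all genes, and with values under 5 raised to 5 it became 24 higher and 12 lower, with a median of 0.071 beside -0.0122 over all genes. The plot of differences shows that most of the intervals span 0 and how far their widths depend on the gene.

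**Figure D1:**
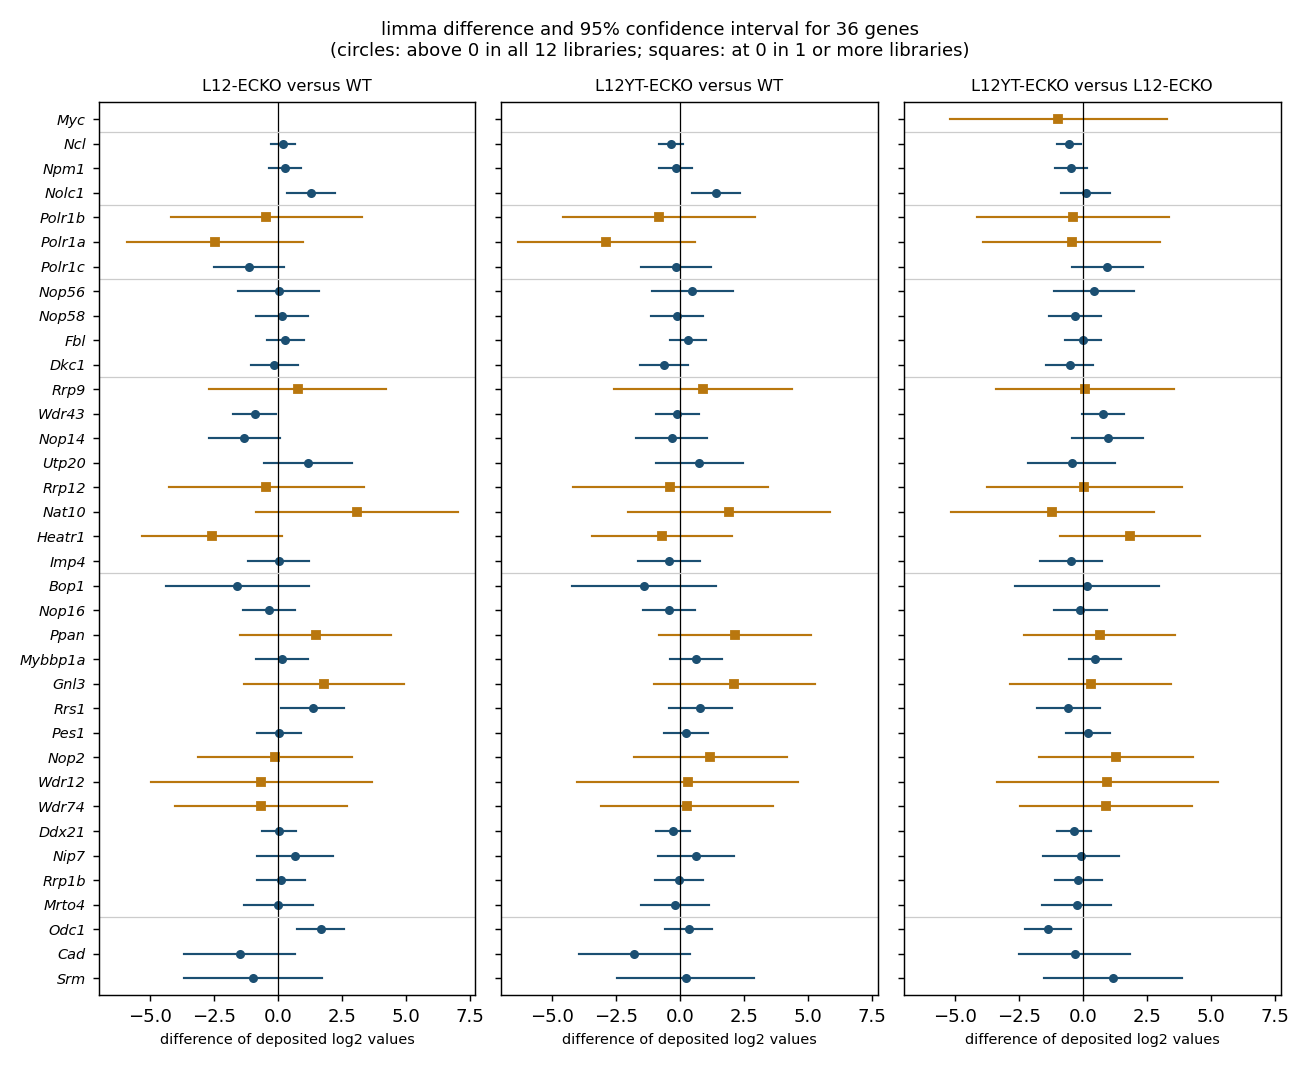
The difference of deposited log2 values (horizontal axis) with its 95% confidence interval from limma is drawn for the 36 genes (vertical axis, ordered by role, gray lines between roles) in the 3 comparisons. Circles are the 24 genes above 0 in all 12 libraries and squares the 12 at 0 in 1 or more; Myc is left out of the comparisons with WT because it was listed at 0 in all 4 WT libraries. The intervals of the squares are the wider ones, with a median width of 6.92 against 2.04 for the circles.

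How firmly a member could be measured differed between members. 24 members were above 0 in all 12 libraries, as were 64.1% of all tested genes, and their standard deviation within groups was 0.193 (Ncl) to 1.89 (Bop1) with a median of 0.708. The other 12 (Myc, Polr1a, Polr1b, Rrp9, Rrp12, Nat10, Heatr1, Ppan, Gnl3, Nop2, Wdr12 and Wdr74) were listed at 0 in 1 or more libraries and had a standard deviation of 2.00 to 3.42. A 0 beside higher values raises the standard deviation by itself, so this contrast was partly fixed by how the sets were formed. Level alone did not separate them: Heatr1 had a mean of 6.98 and a standard deviation of 2.19, and Bop1 had 5.85 and 1.89. The libraries with most members at 0 were L12-ECKO replicate 3, with 5, and WT replicates 1 and 2 and L12YT-ECKO replicate 1, with 4 each. None was at 0 in L12-ECKO replicates 1 and 4 or in L12YT-ECKO replicates 3 and 4. 1 member, Myc, passed the filter only through the knockout libraries.

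**Figure D2:**
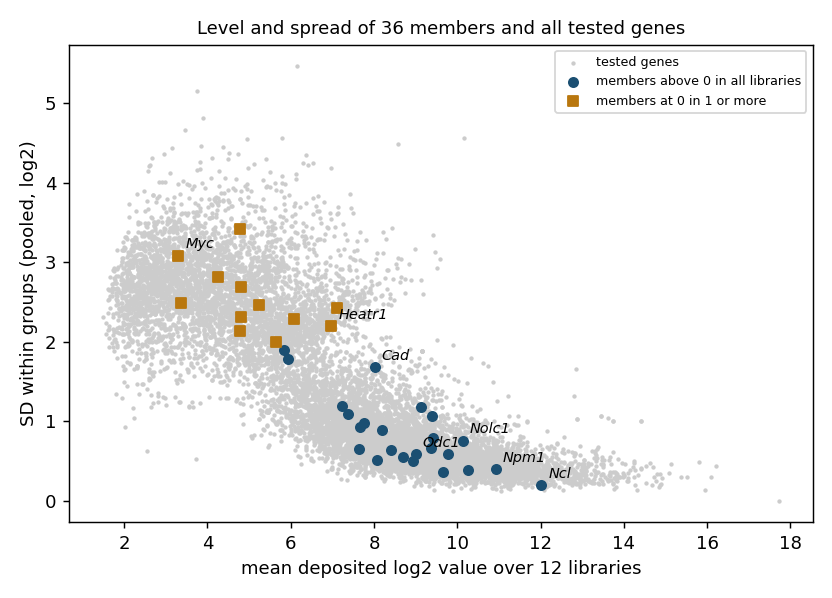
Each point is a gene, placed by its mean deposited log2 value over the 12 libraries (horizontal axis) and its pooled standard deviation within the 3 groups (vertical axis, log2). Gray points are all tested genes, dark circles the 24 members above 0 in all libraries and squares the 12 members at 0 in 1 or more; the spread falls from 3.42 among the squares to 0.193 at Ncl.

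Myc (chromosome 15, 61985391 to 61990374, plus strand) was listed at 0 in all 4 WT libraries. In L12-ECKO its values were 9.06, 8.98, 0 and 3.64, and in L12YT-ECKO they were 0, 5.35, 6.08 and 6.42. Myc was therefore above 0 in 6 of 8 knockout libraries and in none of the WT ones. However, 1 library of each knockout group was at 0 too and the values of L12-ECKO were spread over the whole range. The libraries with Myc at 0 had 9850 to 11336 genes above 0, and those with Myc above 0 had 12353 to 13078. The part of the number of detected genes in this pattern was not tested. The adjusted p was 0.276 for L12-ECKO versus WT, 0.770 for L12YT-ECKO versus WT and 0.985 for L12YT-ECKO versus L12-ECKO (limma). Because Myc entered the test only through the knockout libraries, the values against WT are a description of these libraries. Among the 11634 tested genes, 91 (0.782%) were at 0 in all WT libraries, 58 of these were above 0 in 6 or more knockout libraries, and 10 had a mean over the knockout libraries at least that of Myc. The filter asked for 1 CPM in at least 4 libraries. A tested gene at 0 in all WT libraries therefore had to reach it in at least 4 knockout libraries, and these counts are not a neutral background for Myc.

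The high values of Myc stood in libraries that also differed in other ways. Of the L12-ECKO libraries, replicate 1 held the high immune markers and replicate 2 did not (a mean of 11.3 and 5.21), and Myc was about as high in both. Myc is itself one of the genes that cells switch on within minutes of handling or stimulation. For 10 other such immediate-early genes (Fos, Fosb, Jun, Junb, Egr1, Atf3, Ier2, Zfp36, Dusp1 and Klf4, listed after the Myc values were seen) the mean was 10.3 to 11.1 in the WT libraries, 10.1 to 11.8 in those of L12-ECKO and 10.9 to 11.6 in those of L12YT-ECKO. Within L12-ECKO the libraries stood in the same order by this mean (11.8, 11.4, 10.1 and 10.7 in replicates 1 to 4) as by Myc. The gap between replicates 3 and 4 rested largely on Atf3, which was 0 in replicate 3 and 6.56 in replicate 4. L12YT-ECKO replicate 1 went the other way, with a mean of 11.6 and Myc at 0. Single genes of the list differed in this: Junb was highest in L12-ECKO replicates 1 and 2 (14.3 and 13.5, against 11.7 and 11.6), whereas Fos was lowest in replicate 2 (10.4), and Junb was 13.3 in L12YT-ECKO replicate 1. The part of these genes in the Myc values was not tested.

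**Figure D3:**
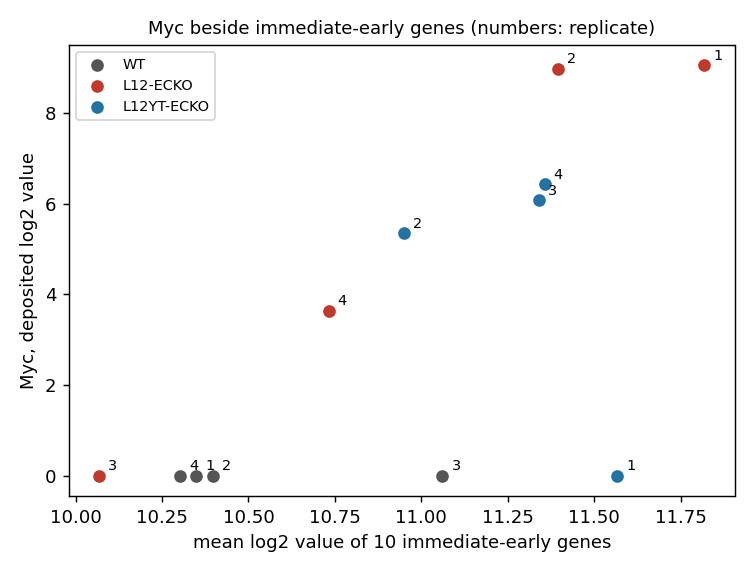
Each point is a library, with the mean deposited log2 value of 10 immediate-early genes on the horizontal axis and that of Myc on the vertical axis; colours are groups and numbers are replicates. The WT libraries lie on 0 between 10.3 and 11.1, the 2 libraries with Myc near 9 are L12-ECKO replicates 1 and 2, and L12YT-ECKO replicate 1 lies on 0 at 11.6.

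3 members encode abundant nucleolar proteins, and none passed the test. Ncl encodes nucleolin, a protein that binds the ribosomal RNA precursor (chromosome 1, 86344719 to 86359400, minus strand). Its values were 11.94, 11.97, 12.08 and 12.27 in the WT libraries, 12.13, 12.15, 12.52 and 12.25 in those of L12-ECKO and 12.03, 11.66, 11.69 and 11.45 in those of L12YT-ECKO. The means were 12.1 ± 0.149, 12.3 ± 0.178 and 11.7 ± 0.240 (SD, n = 4), and every L12YT-ECKO library lay below every L12-ECKO library. Of all tested genes 1.62% lay lower without overlap in that comparison. The difference was -0.55 (SE 0.221, 95% confidence interval -1.02 to -0.093, limma adjusted p = 0.714). L12-ECKO and WT overlapped, with a difference of 0.20 (95% confidence interval -0.27 to 0.66, limma adjusted p = 0.744), and so did L12YT-ECKO and WT, with a difference of -0.36 (-0.82 to 0.10, limma adjusted p = 0.828). Because Ncl varied least of the 36 genes, its interval is the narrowest, and changes of more than 0.66 upward or 0.27 downward in L12-ECKO lie outside it.

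Npm1 encodes nucleophosmin, a nucleolar chaperone of ribosome assembly, and ranged from 10.4 to 11.3 in the WT libraries, from 10.7 to 11.5 in those of L12-ECKO and from 10.4 to 10.9 in those of L12YT-ECKO, with overlap between all groups. Nolc1 encodes a chaperone of snoRNPs that is also known as Nopp140 (chromosome 19, 46075863 to 46085530, plus strand). Nolc1 was 8.95, 8.46, 10.2 and 9.35 in the WT libraries, 10.9, 11.1, 11.1 and 9.01 in those of L12-ECKO and 10.8, 10.2, 11.1 and 10.4 in those of L12YT-ECKO. All L12YT-ECKO libraries lay above all WT libraries, which 2.54% of tested genes did, and 3 of 4 L12-ECKO libraries did as well. The difference from WT was 1.29 in L12-ECKO (SE 0.452, limma adjusted p = 0.240) and 1.40 in L12YT-ECKO (SE 0.452, limma adjusted p = 0.633). The 2 comparisons share the WT libraries. Between the knockout groups the difference was 0.11 (95% confidence interval -0.84 to 1.06, limma adjusted p = 0.991).

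**Figure D4:**
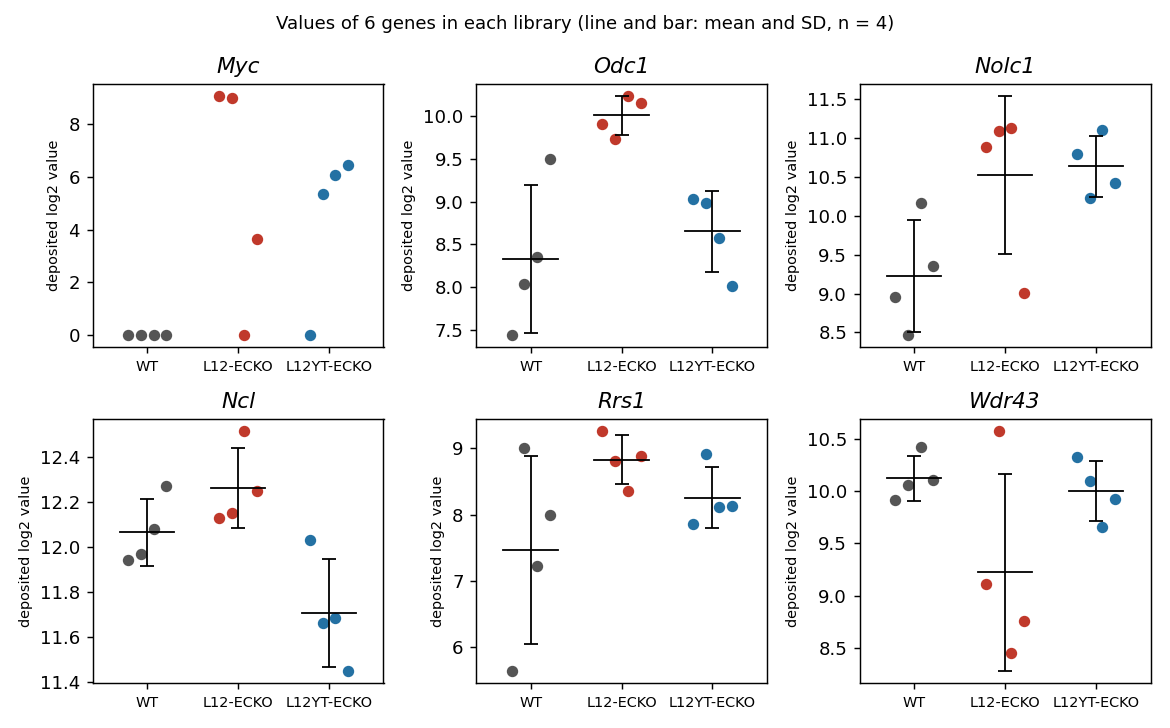
Deposited log2 values (vertical axis, a separate scale in each panel) of 6 genes in the 12 libraries, by group; points are libraries in the order of their replicate numbers, and lines and bars are the mean and SD of 4, drawn only where no library was at 0. Odc1 in L12-ECKO lies at 9.74 to 10.2, above all WT values (7.43 to 9.50), while Ncl in L12YT-ECKO lies below L12-ECKO by 0.55 on average.

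The 3 RNA polymerase I subunits all had lower means in both knockout groups than in WT, but the medians of Polr1b were higher. None of the 3 passed the test. Polr1a encodes the largest subunit. Its values were 6.14, 8.17, 6.87 and 6.84 in the WT libraries, 5.44, 6.42, 0 and 6.38 in those of L12-ECKO and 6.77, 2.00, 1.39 and 6.32 in those of L12YT-ECKO. The low values came from 1 L12-ECKO and 2 L12YT-ECKO libraries, and the other knockout libraries overlapped WT. The difference was -2.45 in L12-ECKO (SE 1.65, limma adjusted p = 0.550) and -2.89 in L12YT-ECKO (SE 1.65, limma adjusted p = 0.824); with values under 5 raised to 5 the differences were -1.20 and -1.23. Polr1c, a subunit shared with RNA polymerase III, was 8.86, 7.42, 8.22 and 7.82 in the WT libraries, 7.01, 7.98, 4.98 and 7.87 in those of L12-ECKO and 8.43, 7.24, 7.80 and 8.196 in those of L12YT-ECKO. The value of 4.98 is the lowest above 0 that occurs in L12-ECKO replicate 3. The difference of L12-ECKO from WT was -1.12 (SE 0.658, limma adjusted p = 0.500). Polr1b, the second-largest subunit, ranged from 4.03 to 7.22 in WT and from 0 to 6.86 in the knockout libraries.

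Of the snoRNP core proteins, Fbl encodes fibrillarin, the methyltransferase of the box C/D class. Fbl was 9.59, 9.23, 9.47 and 9.50 in the WT libraries, 9.39, 9.99, 9.30 and 10.3 in those of L12-ECKO and 9.32, 9.78, 10.2 and 9.67 in those of L12YT-ECKO. The groups overlapped. The means were 9.45 ± 0.155, 9.75 ± 0.481 and 9.74 ± 0.361 (SD, n = 4), and the difference from WT was 0.30 in L12-ECKO (95% confidence interval -0.41 to 1.01, limma adjusted p = 0.743) and 0.29 in L12YT-ECKO (-0.41 to 1.001, limma adjusted p = 0.904). Nop56 and Nop58, the scaffold proteins of the same particles, had group means between 7.20 and 7.67 and between 9.26 and 9.57. Dkc1, the pseudouridine synthase of the box H/ACA class, had means of 8.96 ± 0.698 in the WT libraries, 8.83 ± 0.363 in those of L12-ECKO and 8.32 ± 0.512 in those of L12YT-ECKO (SD, n = 4). All 4 genes overlapped between the groups.

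The small-subunit processome and 40S assembly group held 8 members, of which 4 lay higher and 4 lower in L12-ECKO than in WT. Wdr43, which encodes a processome protein and carries the E-box shown above 17 bases after its start, was 9.91, 10.1, 10.4 and 10.1 in WT. It was 9.11, 10.6, 8.45 and 8.75 in the L12-ECKO libraries and 10.3, 10.1, 9.66 and 9.93 in L12YT-ECKO. 3 of the 4 L12-ECKO libraries lay below every WT library and replicate 2 lay above them all. The difference was -0.91 in L12-ECKO versus WT (SE 0.399, limma adjusted p = 0.371), 0.78 in L12YT-ECKO versus L12-ECKO (SE 0.399, limma adjusted p = 0.825) and -0.12 in L12YT-ECKO versus WT (SE 0.399, limma adjusted p = 0.970).

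Heatr1, a scaffold of the early processome, was 7.69, 7.07, 8.96 and 8.55 in the WT libraries, 7.76, 6.92, 0 and 7.38 in those of L12-ECKO and 7.27, 7.44, 7.61 and 7.07 in those of L12YT-ECKO. Its difference of -2.55 in L12-ECKO versus WT (SE 1.29, limma adjusted p = 0.439) rested largely on the 1 library at 0, since it was -1.30 with values under 5 raised to 5. In the last 500 bases of the Heatr1 gene, where 3′ reads fall, its exons share 155 bases with Lgals8 on the other strand. Nat10, an RNA acetyltransferase, was 0, 0, 5.65 and 4.66 in the WT libraries, 5.22, 6.30, 7.54 and 3.64 in those of L12-ECKO and 0, 3.52, 7.54 and 6.85 in those of L12YT-ECKO. With 2 WT libraries at 0, its difference from WT in L12-ECKO was 3.10 (SE 1.89, limma adjusted p = 0.520), which became 0.85 with values under 5 raised to 5. Utp20 and Imp4, which also carry the E-box, ranged from 4.33 to 9.28 and from 6.57 to 8.87 over all libraries. Nop14 ranged from 7.64 to 8.98 in the WT libraries, from 5.10 to 8.14 in those of L12-ECKO and from 7.19 to 9.04 in those of L12YT-ECKO. Rrp9 and Rrp12 were each at 0 in 1 WT library, Rrp12 also in 1 L12YT-ECKO library, and both lay between 0 and 7.48 throughout.

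The largest group was 60S assembly, with 14 members, of which 9 lay higher and 5 lower in each knockout group than in WT and none passed the test. Ddx21, an RNA helicase of the nucleolus, was 10.6, 9.95, 10.1 and 10.7 in WT. It was 9.83, 10.99, 10.6 and 10.1 in the L12-ECKO libraries and 10.2, 9.84, 10.1 and 9.98 in L12YT-ECKO. The means were 10.33 ± 0.388, 10.37 ± 0.531 and 10.03 ± 0.157 (SD, n = 4), and the differences from WT were 0.044 (95% confidence interval -0.63 to 0.72, limma adjusted p = 0.971) and -0.30 (-0.97 to 0.37, limma adjusted p = 0.901). Rrs1, a factor of the particle that brings 5S RNA into the large subunit, was 5.64, 9.01, 7.22 and 7.99 in the WT libraries, 9.26, 8.81, 8.36 and 8.88 in those of L12-ECKO and 7.86, 8.92, 8.12 and 8.12 in those of L12YT-ECKO. The WT libraries of Rrs1 ran from 5.64 to 9.01 and reached into both knockout groups. Its difference in L12-ECKO versus WT was 1.36 (SE 0.589, 95% confidence interval 0.13 to 2.59, limma adjusted p = 0.360).

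Pes1, Bop1 and Wdr12 encode the PeBoW complex, which is needed for the cutting of the 60S precursor. Pes1 overlapped between the groups (8.85 ± 0.481, 8.89 ± 0.570 and 9.08 ± 0.421 as means and SDs of 4). Bop1 was 7.39, 6.50, 6.51 and 7.0 in the WT libraries, 3.59, 6.47, 7.25 and 3.76 in those of L12-ECKO and 6.95, 5.98, 1.51 and 7.26 in those of L12YT-ECKO. 2 L12-ECKO libraries and 1 L12YT-ECKO library lay far below WT and the others within or near its range, and the differences were -1.58 (SE 1.34, limma adjusted p = 0.654) and -1.43 (SE 1.34, limma adjusted p = 0.891). With values under 5 raised to 5 these were -0.92 and -0.55. Wdr12 was at 0 in 1 library of each group and reached 7.23 to 7.78 in another. None of the 3 passed the test.

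Gnl3, or nucleostemin, a nucleolar GTPase of proliferating cells, was 0, 7.004, 8.17 and 8.04 in the WT libraries, 9.40, 7.46, 6.99 and 6.61 in those of L12-ECKO and 8.89, 8.44, 7.14 and 7.21 in those of L12YT-ECKO. Apart from the WT library at 0 the 3 groups overlapped, and both knockout groups reached above the highest WT value. Its differences from WT were 1.81 (SE 1.46, limma adjusted p = 0.640) and 2.12 (SE 1.46, limma adjusted p = 0.838), or 0.56 and 0.87 with values under 5 raised to 5. Ppan, a factor of early 60S particles, was 7.04, 0, 4.72 and 6.04 in the WT libraries, 7.79, 4.56, 5.56 and 5.82 in those of L12-ECKO and 6.42, 7.26, 6.88 and 5.77 in those of L12YT-ECKO. Here too 1 WT library at 0 carried much of the difference of L12YT-ECKO from WT, which was 2.13 (SE 1.41, limma adjusted p = 0.832) and 0.81 with values under 5 raised to 5.

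Nop2, a methyltransferase of the large ribosomal RNA that carries the E-box 60 bases before its start, was 7.05, 0, 7.29 and 8.51 in the WT libraries, 4.45, 5.66, 6.59 and 5.73 in those of L12-ECKO and 6.68, 6.77, 6.94 and 7.17 in those of L12YT-ECKO. It was the only member that lay higher in L12YT-ECKO than in L12-ECKO without overlap, which 2.75% of tested genes did. The difference was 1.28 (SE 1.44, limma adjusted p = 0.963). The error is estimated over all 3 groups, and 1 WT library was at 0. In that same comparison Heatr1 differed by 1.83 (SE 1.29, limma adjusted p = 0.912). Of the rest of the group, Mybbp1a had means of 7.81 ± 0.399, 7.96 ± 0.463 and 8.43 ± 0.652 (SD, n = 4). In the last 500 bases of the gene its exons share 131 bases with Spns2 on the other strand. Nip7, Nop16, Rrp1b and Mrto4 had group means of 8.70 to 9.38, 8.23 to 8.68, 9.29 to 9.47 and 9.24 to 9.48. Wdr74 lay between 0 and 6.80.

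Odc1 had the smallest p of the 36 genes in both comparisons with L12-ECKO. It encodes ornithine decarboxylase, the rate-limiting enzyme of polyamine synthesis (chromosome 12, 17544794 to 17551505, plus strand). Its values were 7.43, 8.04, 8.36 and 9.50 in the WT libraries, 9.92, 9.74, 10.2 and 10.2 in those of L12-ECKO and 9.04, 8.98, 8.58 and 8.02 in those of L12YT-ECKO. Every L12-ECKO library lay above every WT and every L12YT-ECKO library, whereas L12YT-ECKO overlapped WT. In L12-ECKO versus WT it was the only 1 of the 36 genes that lay higher without overlap, beside 2.97% of all tested genes. In L12YT-ECKO versus L12-ECKO it was 1 of 2 that lay lower without overlap, with Ncl, beside 1.62% of all.

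The means of Odc1 were 8.33 ± 0.865, 10.01 ± 0.231 and 8.65 ± 0.471 (SD, n = 4). The difference of L12-ECKO from WT was 1.68 (SE 0.435, 95% confidence interval 0.77 to 2.59, limma adjusted p = 0.106), and it passed the test only when WT replicate 4 was left out (2.07, limma adjusted p = 0.0477). The difference of L12YT-ECKO from L12-ECKO was -1.36 (SE 0.435, 95% confidence interval -2.27 to -0.45, limma adjusted p = 0.574), and that of L12YT-ECKO from WT was 0.32 (95% confidence interval -0.59 to 1.23, limma adjusted p = 0.924). The comparisons share libraries. In the 7 libraries without displaced rows L12-ECKO replicate 1, the library with the high immune markers (a mean of 11.3), was alone in its group. There the first difference was 1.58 and that between the knockout groups -0.91. In the 5 libraries with displaced rows the latter was -1.75. With the batch as a covariate the differences were 1.95 and -1.45.

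The other 2 enzymes did not follow Odc1. Cad, which starts pyrimidine synthesis, was 8.75, 10.5, 8.51 and 8.69 in the WT libraries, 7.67, 6.79, 8.61 and 7.41 in those of L12-ECKO and 3.34, 8.62, 8.61 and 8.64 in those of L12YT-ECKO. The highest value was a single WT library and the lowest a single L12YT-ECKO library. The differences from WT were -1.49 (SE 1.01, limma adjusted p = 0.559) and -1.81 (SE 1.01, limma adjusted p = 0.824). Srm, which makes spermidine from the product of Odc1, was 8.61, 4.94, 6.92 and 4.25 in the WT libraries, 5.22, 7.07, 6.57 and 1.98 in those of L12-ECKO and 6.42, 6.34, 7.11 and 5.68 in those of L12YT-ECKO. The groups overlapped, and the difference of L12YT-ECKO from L12-ECKO was 1.18 (SE 1.29, limma adjusted p = 0.962).

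No other gene of these pathways was called either. Of 133 further entries (MYC network partners, other RNA polymerase I factors, small-subunit, large-subunit and snoRNP factors) 126 were tested. None passed the test in any comparison, and 63 lay higher and 63 lower in each (limma). At an unadjusted limma p under 0.05 there were 7 higher and 3 lower in L12-ECKO versus WT, against 12.2% of all tested genes. In L12YT-ECKO versus WT there were 2 and 1, against 6.24% of all. In L12YT-ECKO versus L12-ECKO there were 1 and 1, against 6.08% of all. The median differences of the 126 were -0.011, 0.0097 and 0.0013, beside -0.022, 0.080 and 0.090 over all tested genes. By group, 8 of 14 MYC network partners, 8 of 17 RNA polymerase I factors, 22 of 42 small-subunit factors, 18 of 42 large-subunit factors and 7 of 11 snoRNP factors lay higher in L12-ECKO than in WT.

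Max, the partner without which MYC does not bind DNA, had the smallest p of all 126 in L12-ECKO versus WT. Max was 9.03, 8.96, 8.72 and 8.85 in the WT libraries, 10.6, 9.11, 10.3 and 10.3 in those of L12-ECKO and 10.6, 9.71, 9.48 and 9.71 in those of L12YT-ECKO. All knockout libraries lay above all WT libraries, L12-ECKO replicate 2 by the least; of all tested genes 2.97% lay higher without overlap in L12-ECKO and 2.54% in L12YT-ECKO. The difference from WT was 1.18 in L12-ECKO (SE 0.371, limma adjusted p = 0.190) and 0.98 in L12YT-ECKO (SE 0.371, limma adjusted p = 0.749). Mxd1, which competes with MYC for MAX, was 5.13, 6.20, 6.98 and 6.23 in the WT libraries, 9.41, 8.24, 7.04 and 8.19 in those of L12-ECKO and 8.21, 6.12, 6.46 and 7.09 in those of L12YT-ECKO. Its L12-ECKO libraries lay above WT without overlap, but narrowly, with replicate 3 at 7.04 and the highest WT library at 6.98. The highest value (9.41) was in L12-ECKO replicate 1, which held the high immune markers. The difference of Mxd1 in L12-ECKO versus WT was 2.08 (SE 0.740, limma adjusted p = 0.249). Max and Mxd1 were the 2 of the 126 that lay higher in L12-ECKO than in WT without overlap, and 3 lay lower in the same way, beside 3.36% of all tested genes: the processome factors Wdr36 (-1.55, limma adjusted p = 0.326) and Mphosph10 (-2.91, limma adjusted p = 0.336), and Pwp1. In L12YT-ECKO versus WT, Max and Rrn3, an initiation factor of RNA polymerase I, lay higher without overlap, beside 2.54% of all tested genes. Pwp1 lay lower there, beside 2.17% of all. In L12YT-ECKO versus L12-ECKO Rrn3 lay higher without overlap, beside 2.75% of all.

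In the remaining groups the smallest p values in L12-ECKO versus WT belonged to Rrp7a, of the processome (1.26, limma adjusted p = 0.214), Senp3, a protease that acts on 60S factors (4.02, with 1 WT library at 0, limma adjusted p = 0.229), Gar1, of the H/ACA particle (1.15, limma adjusted p = 0.350), and Polr2e, a subunit shared by the 3 nuclear polymerases (-0.90, limma adjusted p = 0.455). Proliferation markers (Mki67, Top2a, Ccnb1, Cdk1 and Birc5), which in growing tissue go with ribosome production, had a mean of 9.39 to 10.2 in the WT libraries, 8.64 to 10.1 in those of L12-ECKO and 9.68 to 10.1 in those of L12YT-ECKO, and Ccnb1 was at 0 in 1 L12-ECKO library. 14 of the 36 genes share exon bases with a gene on the opposite strand, 5 of them within the last 500 bases of the gene (Nop56, Bop1, Mybbp1a, Dkc1 and Heatr1). Whether the counting used strand is not given in the sources used here.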

How the data were processed

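Endothelial RNA of 12 libraries was read with a 3′ kit. The tools named per the submitters' processing notes are Bowtie2 and edgeR, with mm10 as the build; their roles and versions are not given there. The deposited log2 values, normalized by the authors, were used as they stand; that they are quantile normalized was read from the values (the 5000 highest ranks differ by at most 0.168). 34 rows (a displaced block and an exchanged pair) and 27 genes with date-like names were left out. Genes at 1 CPM or more in at least 4 libraries, computed from the unlogged values, were tested: 11634 genes, where 1 CPM is a log2 value of 3.52. limma 3.58.1 (R 4.3.3) was fitted with a mean per group over 12 libraries and a trended, robust variance prior (9 residual and 10.1 prior degrees of freedom), with Benjamini-Hochberg adjustment over all tested genes. The fit was tested on simulated data.

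The members, lists and naming rule were chosen with earlier results of these data known. Values per library are given for Myc, for the highest-level member of each role and for the 3 largest and 3 smallest differences per comparison. Those of Nolc1, Rrs1 and Max, and the immediate-early list, were added after the values were seen. Coordinates are from GENCODE M21. 2 pseudogenes are named after Mrto4. Alternatives covered filters, low values, scaling, the prior, batch, replicate number and each library left out.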

Additional observations from a re-analysis of the deposited data

Results flagged for a closer look

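In 12 of 107 groups of 4 libraries 1 value stood far from the other 3. The measure was Dixon's 95% critical value for the gap to the nearest value as a share of the range. For normally distributed values chance gives about 1 in 20. Several of the 12 are values at 0, below a limit that differs by library, so the count cannot be read as an excess over chance. 4 of the 12 were in L12YT-ECKO replicate 1: Myc at 0 (the others 5.35 to 6.42), Cad at 3.34 (8.62 to 8.64), Nop16 at 7.17 (8.49 to 8.74) and Pes1 at 8.45 (9.22 to 9.37). 3 were in WT, with Gnl3 at 0 in replicate 1 (7.004 to 8.17 in the others), Nop2 at 0 in replicate 2 (7.05 to 8.51) and Cad at 10.5 in replicate 2 (8.51 to 8.75). In L12-ECKO replicate 3, the library with the fewest genes above 0, Heatr1 and Polr1a were at 0, where the others had 6.92 to 7.76 and 5.44 to 6.42. Nolc1 was 9.01 in L12-ECKO replicate 4 (10.9 to 11.1 in the others) and Mybbp1a 7.27 in L12-ECKO replicate 1 (8.15 to 8.26). Nop58 was 9.41 in L12YT-ECKO replicate 4, where the other 3 lay within 9.20 to 9.23.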

How the results depend on the processing

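No member passed the test under any alternative except Odc1, in L12-ECKO versus WT without WT replicate 4 (2.07, limma adjusted p = 0.0477). The count of all genes called moved more. In L12-ECKO versus WT it was 21 with no filter on low values, 7 with no trend in the variance prior, 30 with only the 2 groups fitted, 15 with the batch as a covariate, and 15 to 80 with 1 library left out, where only WT replicate 3 and L12YT-ECKO replicates 1 and 4 left it within 1.5 times of 56. In L12YT-ECKO versus L12-ECKO it was 3 with no trend, 5 with 2 groups, 14 in the 7 libraries without displaced rows, 0 in the 5 with them, and 4 to 9 with 1 library left out. In L12YT-ECKO versus WT it was 1 to 3 with 1 library left out, and 3 without WT replicate 1. With a mean of at least 6, 25 members were left, of which 17 lay higher and 8 lower in L12-ECKO versus WT, 11 and 14 in L12YT-ECKO versus WT, and 10 and 15 in L12YT-ECKO versus L12-ECKO.

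Replicate numbers did not pair the libraries: deviations of same-numbered libraries correlated at -0.047 to 0.058 (12 pairs) and others at -0.10 to 0.15 (36 pairs). With the replicate block 43, 1 and 6 genes were called in the 3 comparisons and no member.

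Of 57 differences (19 genes in 3 comparisons), 22 changed sign under 1 or more alternatives, and none of these was called either way; the cause was not tested. In L12-ECKO versus WT these were, with the batch as a covariate, Ddx21 (-0.22) and Fbl (-0.016), and, in the 7 libraries, Ddx21 (-0.50) and Fbl (-0.055). In L12YT-ECKO versus WT they were Nat10 (-0.82) and Wdr43 (0.091) in the 7 libraries and Nop2 (-0.074) with values under 5 raised to 5. In L12YT-ECKO versus L12-ECKO they were, with the covariate, Cad (0.053), Fbl (0.099) and Gnl3 (-0.16). In the 7 libraries they were Ddx21 (0.18), Fbl (0.16), Gnl3 (-0.74), Heatr1 (-0.40), Nolc1 (-0.38) and Ppan (-0.95). In the 5 libraries they were Bop1 (-1.44), Cad (1.02), Fbl (0.067), Myc (2.04) and Nat10 (1.37). With values under 5 raised to 5 they were Cad (0.098) and Nat10 (0.086). Leaving out 1 library gave, in L12-ECKO versus WT, -0.16 to 0.23 for Ddx21, -0.12 to 2.598 for Gnl3, -2.01 to 0.82 for Nop2, -0.0010 to 2.35 for Ppan and -1.62 to 0.10 for Srm. In L12YT-ECKO versus WT it gave -0.73 to 2.11 for Nop2, -0.39 to 0.091 for Polr1c and -0.44 to 1.02 for Srm. In L12YT-ECKO versus L12-ECKO it gave -0.46 to 1.46 for Bop1, -0.76 to 1.004 for Cad, -0.16 to 0.18 for Fbl, -0.029 to 0.90 for Gnl3, -0.0053 to 2.58 for Heatr1, -2.76 to 0.53 for Myc, -2.22 to 0.30 for Nat10, -0.40 to 0.31 for Nolc1 and -1.96 to 0.47 for Polr1a.

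Depth is unknown, and for the 12 members at 0 in 1 or more libraries the 95% confidence intervals were 5.46 to 8.63 wide, against 0.92 to 5.61 for the other 24.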
